A study of Mus musculus with 6 samples.

Results

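The 10 genes described here are cardiac muscle genes, of 55536 Ensembl genes in the count table. They were taken by symbol, whatever their level, and every one was found once in the table. Among them are 5 contractile proteins of the heart (*Actc1*, *Myl2*, *Myl7*, *Tnnt2* and *Tnni3*), the calcium release channel *Ryr2*, the natriuretic peptides *Nppa* and *Nppb*, and the transcription factors *Nkx2-5* and *Gata4*. They were measured in bulk RNA-seq of basal epidermal cells, positive for Epcam and α6 integrin, which were sorted from dorsal skin of mouse embryos at E16.5. There were 3 Ctrl and 3 TKO libraries. Ctrl embryos were Suv39h1 f/f, Suv39h2-/-, Setdb1 f/f and K14CreERT2-, and TKO embryos carried the same alleles with K14CreERT2+, so that both groups lacked functional *Suv39h2*. All embryos had received tamoxifen, which activates the recombinase in keratin 14-expressing basal keratinocytes, and by the study's records the knockout was mosaic and tamoxifen was given from E9.5 to E11.5. The library names code 1 embryo of each group as female (replicate 1 of Ctrl, replicate 2 of TKO) and the remaining 4 as male. SUV39H1, SUV39H2 and SETDB1 write H3K9me3, a histone mark of silenced chromatin.

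A heart muscle cell contracts when calcium, released through the ryanodine receptor RYR2, binds the troponin complex and lets myosin pull on actin filaments. NKX2-5 and GATA4 switch on this gene set in the embryonic heart, and atrial and ventricular cells differ in the myosin light chain they use, MYL7 in atria and MYL2 in ventricles. Several of these genes are not private to the heart. Cardiac α-actin is made by embryonic skeletal muscle, and cardiac troponin T appears for a time in developing skeletal fibres. Epidermal cells are not known to build sarcomeres.

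Total counts were 102159175, 136515436 and 104422632 in Ctrl replicates 1 to 3 and 116308383, 108957256 and 118413082 in TKO replicates 1 to 3. Levels are given in CPM, which divides a count by its library total after TMM scaling, and 3 counts, taken as the smallest detectable level, stood for 0.0232 to 0.0303 CPM, a floor that covers counting error only. The sorted cells carried the keratins of their label, with *Krt5* at 10849 ± 2317 CPM and *Krt14* at 5744 ± 1054 CPM in Ctrl (SD, n = 3). They carried suprabasal markers as well. In Ctrl 5 suprabasal markers summed to 18626, 18218 and 20100 CPM and 9 basal markers to 24541, 24318 and 18310. In TKO the sums were 16288, 12319 and 13068 against 15185, 17019 and 19449. The suprabasal sum was the higher in Ctrl replicate 3 and TKO replicate 1. Of the deleted genes, *Setdb1* was at 126, 118 and 121 CPM in Ctrl against 95.3, 62.3 and 74.9 in TKO, a log2 fold change of -0.65 (SE 0.161) that missed the threshold of edgeR's quasi-likelihood test (Benjamini-Hochberg adjusted p = 0.286). All TKO values of *Setdb1* lay below all Ctrl values, as in 5.11% of all tested genes. DESeq2 gave an adjusted p of 0.0449, with a fold change too small for a call. *Suv39h1* and *Suv39h2*, counted over whole genes and not over the deleted exons, had log2 fold changes of -0.10 (SE 0.137) and 0.11 (SE 0.149). By design Ctrl and TKO did not differ in *Suv39h2*, which was knocked out in both. Of the 10082 exon bases of *Suv39h2*, 5074 overlap *Dclre1c* on the other strand, and with the strand setting unknown reads on them cannot be told apart. The same holds for 923 of the 5426 exon bases of *Suv39h1*, with *Gm14820*. In *Setdb1*, 1309 of 10982 exon bases overlap *Cers2* and 1078 overlap *Gm37500* in this way. The study's records list several litters for the bulk RNA-seq, but neither they nor the labels tie a library to a litter, so p-values measure the spread between these samples.

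The cardiac genes were not detected as a complete set in the sorted cells. *Nkx2-5*, both natriuretic peptides and the ventricular light chain *Myl2* had at most 6 counts in any library, and *Gata4* had at most 6 in 5 libraries and 17 in TKO replicate 2, whereas *Tnnt2*, *Actc1*, *Ryr2*, *Myl7* and *Tnni3* were detected in all 6 libraries, at low levels. These 5 passed the low-count filter and were tested. With edgeR's quasi-likelihood test, 0 of the 5 were called, a call being a Benjamini-Hochberg adjusted p under 0.05 with a log2 fold change beyond 1 in size. By the same rule 27 of all 20622 tested genes (0.131%) were called. Without adjustment, 1 of the 5 was higher at p under 0.05 (*Actc1*), against 4.06% of all genes, and none was lower, against 2.02%. DESeq2 called *Actc1* higher in TKO, 1 of the 5 against 0.936% of all genes called higher. Over the 5, the median log2 fold change was -0.36, against 0.01 over all tested genes. The plot of the 10 genes by library shows all of these values.

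**Figure D1:**
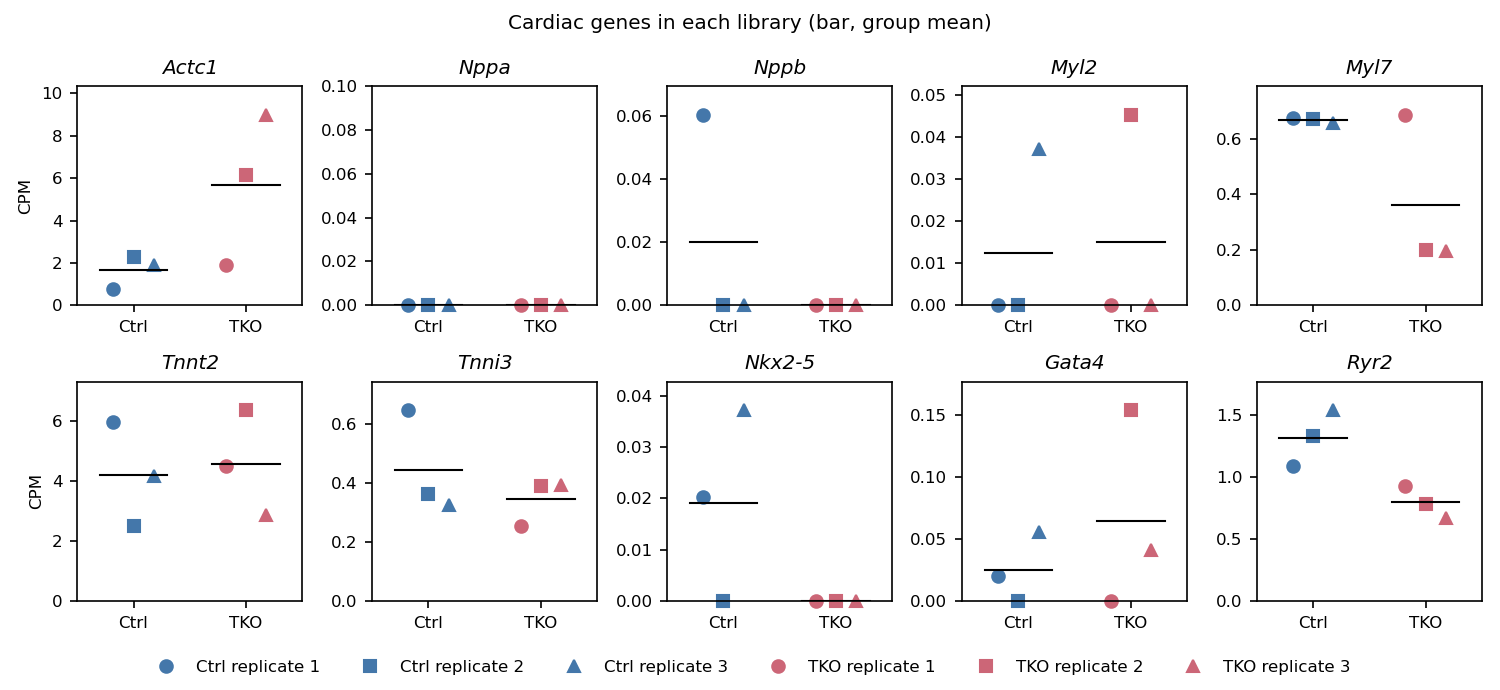
Level of each of the 10 cardiac genes in CPM (vertical axes from 0, each on its own scale) in the 3 Ctrl and 3 TKO libraries, with the group mean as a bar. *Actc1* was highest in TKO replicates 2 and 3 (6.14 and 9.0 CPM), where *Myl7* was lowest (0.199 and 0.197 CPM). All TKO values of *Ryr2* lay below all Ctrl values, as in 5.11% of all tested genes, and *Nppa* was at 0 throughout.

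*Actc1* and *Myl7* were the 2 of the 10 genes with a CArG box, the binding site of serum response factor, in the promoter window, and their stretches are shown with that of *Acta1*, the skeletal muscle paralog of *Actc1*. The box is in capitals, with its flanks in lower case. The sequences are RefSeq promoters, read 5′ to 3′ on the strand of the gene.
Actc1: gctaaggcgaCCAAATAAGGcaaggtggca
Acta1: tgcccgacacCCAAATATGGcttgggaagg
Myl7: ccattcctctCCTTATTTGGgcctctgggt
By exact match to GRCm39 these lie on the minus strand at chr2:113883384-113883413, chr8:124621568-124621597 and chr11:5848824-5848853, and the boxes start 47, 73 and 61 bases before the RefSeq start of each gene. In GENCODE vM39, which annotates exons further upstream, the first 2 stretches lie inside an annotated exon of their gene and the stretch of *Myl7* lies outside its exons. RefSeq promoters (assembly GRCm38.p6, 250 bases before to 50 after the start) matched 9 of the 10 genes, all but *Gata4*, with 11 windows. On both strands, 2 of the 9 genes held a CArG box, against 1.63% of 32851 promoter windows. The GATA motif AGATAA stood in windows of 3 genes, *Nppb*, *Myl2* and *Tnnt2*, against 11.2% of windows, and a MEF2 site in none, against 0.557%. No 2 of these motifs fell in the same gene. Among the other listed genes and paralogs, *Actg1*, *Myl3* and *Ldb3* held a CArG box as well. The genes with a box did not all share a pattern over the libraries. *Actc1*, *Acta1* and *Actg1* were highest in TKO replicates 2 and 3, where *Myl7* was lowest. *Srf*, which encodes serum response factor, was at 67.1 ± 8.67 CPM in Ctrl against 79.1 ± 12.8 in TKO (SD, n = 3).

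*Actc1* encodes cardiac α-actin, the thin filament of heart muscle (ENSMUSG00000068614, GRCm39 chr2:113876266-113884043, minus strand). The 3 Ctrl libraries, in order of replicate number, held 78, 292 and 203 counts, which is 0.788, 2.26 and 1.88 CPM. The 3 TKO libraries held 224, 678 and 1095, which is 1.90, 6.14 and 9.0 CPM. TKO replicates 2 and 3 stood above every Ctrl library, while TKO replicate 1 lay between the Ctrl values, so the groups overlapped. The TKO mean was 3.46 times the Ctrl mean, and the log2 fold change was 1.79 (SE 0.563). edgeR's quasi-likelihood test gave an adjusted p of 0.525 over all genes, which is no call, and DESeq2 gave an adjusted p of 0.0372, which is one. The DESeq2 call was kept when TKO replicate 1 was left out (adjusted p = 0.000520) and lost when any other single library was, with an adjusted p of 0.0528 without Ctrl replicate 2 and of 0.422 without TKO replicate 2. In edgeR without the low-count filter it was called too (adjusted p = 0.000291), with a log2 fold change of 1.75 and a smaller SE of 0.356. With that setting 235 of 39690 genes were called.

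The actins share most of their coding sequence, and how reads were placed among them was not tested. Over the coding sequence, *Actc1* and *Acta1* were 86.3% identical. Their longest exact shared run was 29 bases, and the longest shared with any of the 5 other actins was 38 bases, with *Actg2*. *Acta1*, skeletal α-actin, was at 0.353, 0.573 and 0.965 CPM in Ctrl against 0.960, 3.28 and 3.97 in TKO. It overlapped between groups by the same library as *Actc1*, TKO replicate 1, and its log2 fold change was 2.12 (SE 0.578), not called by edgeR's quasi-likelihood test (adjusted p = 0.360) and called by DESeq2 (adjusted p = 0.0122). Per kilobase of transcript the 2 sarcomeric actins were at like levels, 0.451 ± 0.210 and 0.382 ± 0.188 CPM per kb in Ctrl and 1.56 ± 0.980 and 1.66 ± 0.957 CPM per kb in TKO (SD, n = 3). The non-muscle actin *Actb*, the main actin of these cells, was at 1885 ± 131 CPM per kb in Ctrl. *Actg1*, the other non-muscle actin, was at 596, 669 and 684 CPM in Ctrl against 613, 812 and 835 in TKO, and the smooth muscle actin *Acta2* at 5.65 ± 3.26 and 5.86 ± 4.01 CPM.

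*Myl7* encodes the atrial regulatory light chain of myosin (ENSMUSG00000020469, chr11:5845449-5848792). Its levels were 0.677, 0.673 and 0.659 CPM in Ctrl against 0.688, 0.199 and 0.197 in TKO, from 67, 87 and 71 against 81, 22 and 24 counts. The 3 Ctrl libraries and TKO replicate 1 were alike, and TKO replicates 2 and 3, the libraries with the most *Actc1*, were lower. The log2 fold change was -0.89 (SE 0.587), with an adjusted p of 0.9998 from edgeR's quasi-likelihood test. It was -1.76 without TKO replicate 1, -0.60 without TKO replicate 2 and -0.59 without TKO replicate 3, not called by edgeR in any of them (adjusted p = 0.632 to 0.99997). The ventricular light chain *Myl2* had 0, 0 and 4 counts in Ctrl and 0, 5 and 0 in TKO. Among the other light chains, *Myl4*, of atrial and embryonic striated muscle, was at 0.242, 0.325 and 0.213 CPM in Ctrl against 0.535, 0.715 and 0.765 in TKO. Its groups did not overlap, which 6.35% of all tested genes showed in this direction, and its log2 fold change of 1.36 (SE 0.481) was not called by edgeR (adjusted p = 0.658) or DESeq2 (adjusted p = 0.418). The non-muscle light chain *Myl6* was the most abundant, at 121 ± 34.6 CPM in Ctrl against 108 ± 10.8 in TKO (SD, n = 3).

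*Tnnt2*, cardiac troponin T, anchors the troponin complex to the thin filament (ENSMUSG00000026414, chr1:135763738-135780315). It was the highest of the 10 genes per kilobase in both groups. It had 5.98, 2.49 and 4.18 CPM in Ctrl against 4.51, 6.37 and 2.87 in TKO, and the groups lay over each other. Its log2 fold change was 0.12 (SE 0.389), and it turned negative when Ctrl replicate 2 or TKO replicate 2 was left out (-0.15 and -0.19). *Tnni3*, cardiac troponin I, the subunit that blocks contraction at low calcium (ENSMUSG00000035458, chr7:4521300-4527228), was at 0.646, 0.364 and 0.325 CPM in Ctrl against 0.255, 0.389 and 0.395 in TKO. The log2 fold change of -0.36 (SE 0.534) rested on the high value of Ctrl replicate 1 and was 0.0065 without it. *Dnaaf3*, an assembly factor of motile cilia on the same strand, shares 394 of the 2495 exon bases of *Tnni3*, and reads on those bases cannot be told apart. The slow skeletal troponin I gene *Tnni1*, which the embryonic heart also uses, was at 0.798, 0.441 and 0.427 CPM in Ctrl against 1.04, 1.10 and 2.20 in TKO. Its groups did not overlap, which 6.35% of all tested genes showed in this direction. The log2 fold change of 1.38 (SE 0.474) was not called by edgeR (adjusted p = 0.639). The fast isoform *Tnni2* was at 2.71, 1.84 and 1.38 CPM in Ctrl against 1.29, 1.62 and 1.33 in TKO, and slow troponin T, *Tnnt1*, at 0.328 ± 0.0286 and 0.347 ± 0.0593 CPM (SD, n = 3).

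*Ryr2* encodes the calcium release channel of the heart's sarcoplasmic reticulum (ENSMUSG00000021313, chr13:11567988-12121870). It was at 1.09, 1.33 and 1.54 CPM in Ctrl against 0.926, 0.788 and 0.674 in TKO. All 3 TKO libraries lay below all 3 Ctrl libraries, 1 of the 5 tested genes, against 5.11% of all tested genes that were lower without overlap. The log2 fold change was -0.73 (SE 0.375), with an adjusted p of 0.907 from edgeR's quasi-likelihood test. Leaving out each library in turn gave -0.86 to -0.61, none of them called. Over its transcript of 16853 bases this was 0.0784 ± 0.0134 CPM per kb in Ctrl, and the skeletal muscle channel *Ryr1* was higher per kilobase in the same cells, at 0.416 ± 0.0891 CPM per kb (SD, n = 3). *Ryr1* was at 7.90, 5.22 and 6.05 CPM in Ctrl against 7.96, 9.39 and 5.78 in TKO. The third channel, *Ryr3*, was at 0.858, 0.217 and 0.677 CPM in Ctrl against 0.102, 0.226 and 0.395 in TKO.

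Per kilobase of the canonical transcript, the order in Ctrl was *Tnnt2* (2.37 ± 0.981 CPM per kb), *Myl7* (1.11 ± 0.0157), *Tnni3* (0.486 ± 0.192), *Actc1* (0.451 ± 0.210) and *Ryr2* (0.0784 ± 0.0134). *Tnni3* and *Actc1* did not differ beyond their spread. In TKO the order was *Tnnt2* (2.58 ± 0.985 CPM per kb), *Actc1* (1.56 ± 0.980), *Myl7* (0.601 ± 0.470), *Tnni3* (0.378 ± 0.0865) and *Ryr2* (0.0472 ± 0.00749), all as mean ± SD over 3 libraries. The neighbours *Tnnt2* and *Actc1*, *Actc1* and *Myl7*, and *Myl7* and *Tnni3* overlapped there within their spread. The keratin gene *Krt5* was at 4909 ± 1048 CPM per kb in the same Ctrl libraries. In bulk libraries a lower level in every cell and a smaller number of cells of a type cannot be told apart.

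*Nkx2-5* and *Gata4* did not pass the low-count filter and could not be compared. *Nkx2-5*, a homeodomain factor of the first heart progenitors (ENSMUSG00000015579, chr17:27057638-27063983), had 2, 0 and 4 counts in Ctrl and 0 in each TKO library. *Gata4* (ENSMUSG00000021944, chr14:63436362-63509141) had 2, 0 and 6 counts in Ctrl and 0, 17 and 5 in TKO, and the 17 counts of TKO replicate 2 were 0.154 CPM. The GATA factor of these cells was *Gata3*, an epidermal regulator, at 219, 205 and 249 CPM in Ctrl against 213, 195 and 296 in TKO. *Gata6*, which also acts in the heart, was at 1.09 ± 0.887 CPM in Ctrl against 1.01 ± 0.214 in TKO (SD, n = 3), and *Gata5* had 2 counts or fewer in each library.

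The natriuretic peptides, hormones that the stretched or fetal heart secretes, were at or near 0. *Nppa* (ENSMUSG00000041616, chr4:148085091-148086583) had 0 counts in all 6 libraries, which is below the floor of 3 counts (0.0232 to 0.0303 CPM, by library). The antisense RNA *Gm13054* covers 615 of its 1019 exon bases. Its neighbour *Nppb* (ENSMUSG00000029019, chr4:148069859-148071662) had 6 counts in Ctrl replicate 1 and 0 in the other 5 libraries. Parts of the pathway that act outside the heart were present. *Furin*, a broadly expressed protease that cleaves peptide precursors, was at 113 ± 14.3 CPM in Ctrl against 117 ± 24.4 in TKO. The clearance receptor *Npr3* was at 40.9 ± 10.1 and 35.6 ± 1.53 CPM, and *Npr2*, the receptor for C-type natriuretic peptide, at 3.48 ± 1.09 and 3.27 ± 1.58 CPM (SD, n = 3). Of the 6 pathway genes, all were tested and 0 were called by edgeR or DESeq2, against 0.131% and 1.04% of all tested genes, and 2 of 6 had a log2 fold change above 0, against 51.9%.

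A further 56 cardiac genes were listed in 5 classes, and 40 of them were tested. With edgeR's quasi-likelihood test 0 of the 40 were called, with 6 higher and 2 lower at an unadjusted p under 0.05, against 4.06% and 2.02% of all tested genes, while DESeq2 called 4, of which 3 were higher (*Actn2*, *Ttn* and *Jph2*) and 1 lower (*Isl1*). In either direction DESeq2 called 1.04% of all genes. The median log2 fold change of the 40 was 0.06, against 0.01 for all tested genes, and 22 had a log2 fold change above 0 and 18 below, against 51.9% of all genes above 0. By class the medians were 0.66 for 11 sarcomere genes, -0.01 for 9 calcium and conduction genes, -0.05 for 9 transcription factors, -0.15 for 6 natriuretic pathway genes and 0.70 for 5 genes of energy metabolism. The plot of fold changes by class gives each tested gene.

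**Figure D2:**
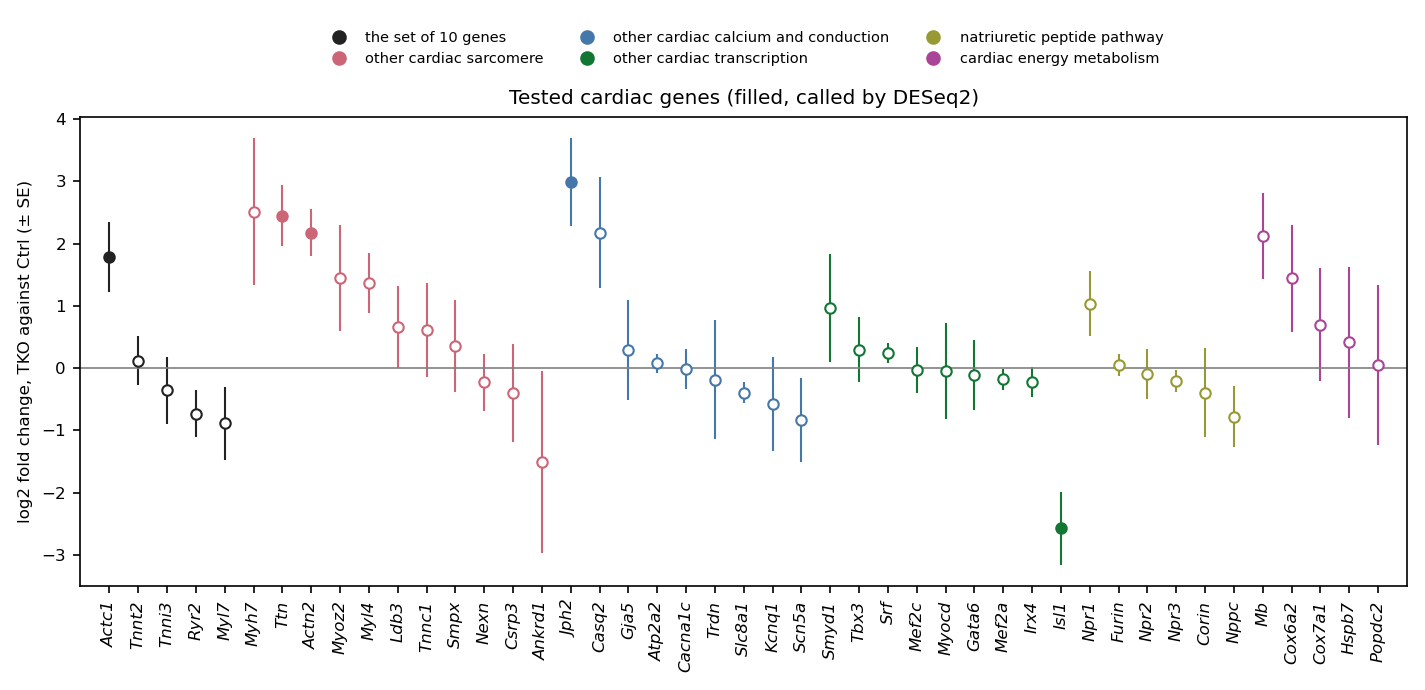
Log2 fold change of TKO against Ctrl with its standard error (vertical axis) for the 5 tested genes of the set of 10 and the 40 other tested cardiac genes, grouped by class and ordered within a class. Filled points were called by DESeq2, namely *Actc1*, *Ttn*, *Actn2* and *Jph2* above 0 and *Isl1* below, and edgeR called none of them.

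The sarcomere class was the one with most genes apart between groups. Of its 11 tested genes, 5 were higher in TKO without overlap of the groups, against 6.35% of all tested genes, and 0 were lower, against 5.11%. Over the 40 other cardiac genes tested, which include this class, 8 were higher and 3 lower without overlap. *Actn2*, α-actinin of the Z-disc in heart and skeletal muscle, was at 0.636, 0.727 and 0.993 CPM in Ctrl against 2.95, 4.96 and 2.75 in TKO, a log2 fold change of 2.18 (SE 0.380) with an adjusted p of 0.0879 from edgeR and of 1.41e-06 from DESeq2. *Ttn*, the giant spring of the sarcomere in both muscles, was at 1.33, 7.41 and 3.90 CPM in Ctrl against 26.1, 22.1 and 20.9 in TKO, a log2 fold change of 2.45 (SE 0.493) with an adjusted p of 0.181 from edgeR and of 0.0214 from DESeq2, and 3.14 without Ctrl replicate 2. Unlike *Actc1*, both were high in TKO replicate 1. *Ttn* was the most abundant gene of the class over the 6 libraries. The summed level of the class was 8.35 ± 3.93 CPM in Ctrl against 30.7 ± 2.02 in TKO (SD, n = 3). Of the 117522 exon bases of *Ttn*, 453 overlap an antisense transcript that was also counted. Of the myosin heavy chains most typical of the heart, *Myh6* had at most 9 counts in any library. *Myh7*, of ventricle and slow skeletal fibres, was higher in TKO without overlap, with 0, 8 and 4 counts in Ctrl and 18, 39 and 11 in TKO, and its log2 fold change of 2.52 (SE 1.18) was not called by edgeR (adjusted p = 0.861). With single libraries left out it ran from 1.82 (without TKO replicate 2) to 3.32 (without Ctrl replicate 2). *Nexn*, an actin-binding Z-disc protein, was at 1.56 ± 0.958 and 1.33 ± 0.192 CPM.

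The calcium, conduction and transcription classes held the most abundant of the other cardiac genes. *Atp2a2*, the calcium pump of the endoplasmic reticulum in heart and in keratinocytes, was at 316, 254 and 337 CPM in Ctrl against 315, 311 and 330 in TKO, and *Mef2a*, a transcription factor of muscle and many other cells, at 390 ± 62.1 and 344 ± 46.8 CPM (SD, n = 3). *Irx4*, a ventricular homeobox gene, was at 142, 143 and 157 CPM in Ctrl against 95.3, 96.5 and 186 in TKO. *Slc8a1*, the sodium-calcium exchanger, was lower in all 3 TKO libraries (18.8, 19.8 and 19.1 CPM) than in the 3 Ctrl libraries (21.3, 30.7 and 24.1 CPM), as were 5.11% of all tested genes. It was not called by edgeR (adjusted p = 0.786). The calcium channel *Cacna1c* was at 3.99 ± 0.764 and 3.95 ± 1.44 CPM. *Jph2*, which ties the cell membrane to the sarcoplasmic reticulum, was at 0.0606, 0.224 and 0.121 CPM in Ctrl against 0.442, 1.93 and 0.913 in TKO, a log2 fold change of 2.99 (SE 0.700) with an adjusted p of 0.228 from edgeR and of 0.00477 from DESeq2. With single libraries left out it ran from 2.30 (without TKO replicate 2) to 3.57 (without Ctrl replicate 2). *Casq2*, of the same calcium and conduction class, had 22, 8 and 2 counts in Ctrl and 32, 40 and 89 in TKO and was not called by edgeR (adjusted p = 0.768). Among the genes of energy metabolism, *Mb*, myoglobin, was the most abundant, at 0.616, 0.124 and 0.158 CPM in Ctrl against 1.0, 2.11 and 0.789 in TKO (edgeR adjusted p = 0.557). Without the low-count filter, where 235 of 39690 genes were called, edgeR called it higher (adjusted p = 0.0342), together with *Actn2* and *Jph2*.

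*Isl1*, a transcription factor of second heart field progenitors that Merkel cells also express, was the cardiac gene called lower by DESeq2. It was at 0.616, 0.511 and 0.668 CPM in Ctrl against 0.136, 0.0634 and 0.0987 in TKO, and no TKO library reached a Ctrl library. Its log2 fold change was -2.57 (SE 0.582), with an adjusted p of 0.217 from edgeR and of 0.0136 from DESeq2. Markers of Merkel cells moved with it. Of 6 listed, 5 were tested and all 5 were lower in TKO without overlap, against 5.11% of all tested genes, with *Piezo2* the most abundant, *Krt8* called lower by DESeq2 (adjusted p = 4.94e-06), against 0.102% of all genes, and not by edgeR (adjusted p = 0.113), and *Krt20* at 0 in TKO replicates 1 and 2. Their summed level was 20.5, 23.9 and 22.7 CPM in Ctrl against 9.39, 11.8 and 12.1 in TKO. The part of Merkel cells in the *Isl1* result was not tested.

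Most skeletal muscle markers had, like *Actc1*, their higher mean in TKO. Of 18 markers, 17 were tested, 15 of them had a log2 fold change above 0, against 51.9% of all genes, and 5 were higher in TKO without overlap, against 6.35%. The list's median log2 fold change was 1.03, against 0.01 for all tested genes. By edgeR's quasi-likelihood test 1 of the 17 was called higher, against 0.131% of all genes. It was the embryonic myosin heavy chain *Myh3*, which was at 0.656, 0.758 and 0.501 CPM in Ctrl against 3.87, 3.46 and 4.37 in TKO (log2 fold change 2.61, SE 0.336, adjusted p = 0.0211). That call was lost without any one library but TKO replicate 3 and with sex as a factor, at adjusted p from 0.0533 to 0.122. The log2 fold change stayed at 2.46 to 2.75 with single libraries left out and was 2.60 with sex as a factor. DESeq2 called 3 higher, *Myh3*, the perinatal chain *Myh8* and *Acta1*, against 0.936% of all genes. The summed level of the list was 16.1, 14.4 and 14.2 CPM in Ctrl against 21.5, 28.0 and 29.7 in TKO, with *Ryr1*, *Myh3* and *Neb* the most abundant over all 6 libraries. In Ctrl alone *Myh3* (0.639 CPM) was below *Tnni2* (1.98 CPM), *Mylpf* (1.34 CPM) and *Neb* (1.24 CPM).

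The myogenic factors, which define the muscle lineage, were low. *Myog*, which drives myoblast fusion and differentiation, was at 0.283, 0.813 and 0.315 CPM in Ctrl against 0.119, 1.44 and 1.66 in TKO, so that TKO replicates 2 and 3 were high and TKO replicate 1 was the lowest of all. The TKO libraries had the same order in *Actc1* and *Acta1*. *Myod1* had 15, 20 and 3 counts in Ctrl and 16, 39 and 24 in TKO. *Myf5* had 0, 13 and 12 counts in Ctrl and 0, 18 and 0 in TKO. *Myh3*, *Myh8*, *Ttn* and *Actn2* were by contrast high in all 3 TKO libraries. The plot of *Actc1* beside other muscle genes shows both patterns. Whether skeletal muscle cells that passed the sort for Epcam and α6 integrin had a part in the *Actc1* level was not tested.

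**Figure D3:**
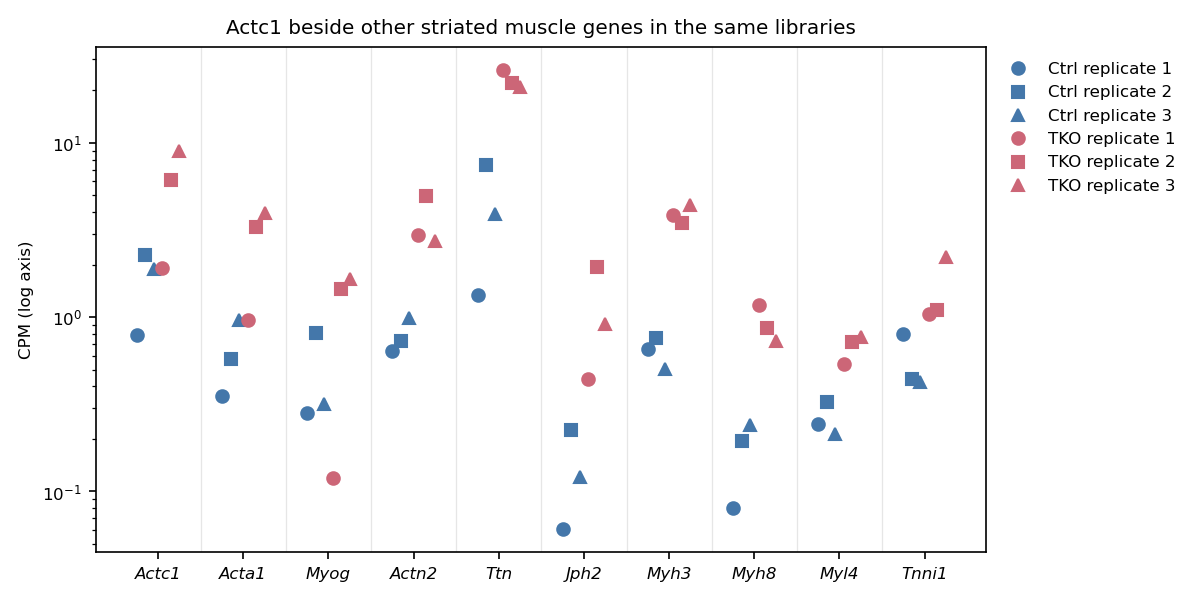
Level in CPM (log axis) of *Actc1* and 9 other striated muscle genes in each of the 6 libraries, with colour for the group and shape for the replicate number. In TKO replicate 1, *Actc1* (1.90 CPM), *Acta1* (0.960 CPM) and *Myog* (0.119 CPM) lay within or below the Ctrl range, while *Ttn* (26.1 CPM), *Actn2* (2.95 CPM) and *Myh3* (3.87 CPM) lay above it.

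Over the 6 libraries, the genes whose log2 CPM most resembled that of *Actc1*, of 14051 tested genes with a mean of at least 1 CPM, were *Chst12* (Pearson r = 0.986), a chondroitin sulfotransferase, *Mob3b* (r = 0.984), *Sfrp5* (r = 0.981), a secreted Wnt inhibitor, the transcription factor *Klf7* (r = 0.981) and *Prkacb* (r = 0.980), a catalytic subunit of protein kinase A. *Acta1* ranked at 24 (r = 0.958) and *Actg1* at 29 (r = 0.954). Against *Actc1*, r was -0.90 for *Myl7*, -0.69 for *Ryr2*, and -0.29 for both *Tnnt2* and *Tnni3*, so none of the other 4 tested genes followed it. These are descriptions over 6 libraries that differ in group and depth, with the best of many genes picked out. *Prkacb* moved only from 57.2 to 74.8 CPM over the range in which *Actc1* moved from 0.788 to 9.0 CPM.

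Markers of other cells that the sort could hold were measured in the same libraries. Endothelial markers, led by *Cdh5*, *Pecam1* and *Kdr*, summed to 26.0, 26.0 and 36.0 CPM in Ctrl against 24.4, 62.4 and 50.6 in TKO, so that they too were high in TKO replicates 2 and 3 and not in TKO replicate 1. All 5 were tested, 5 of 5 had a log2 fold change above 0, against 51.9% of all tested genes, 0 were called by edgeR or DESeq2, against 0.131% and 1.04%, and none was at 0 in any library. Erythroid markers, led by *Hba-a1*, *Hbb-bs* and *Hbb-bt*, summed to 20.2, 78.1 and 69.5 CPM in Ctrl against 65.6, 80.0 and 142 in TKO, lowest and highest in the same libraries as *Actc1*, with 5 of 6 above 0, 0 called by either tool, against the same shares of all genes, and *Hba-a2* at 0 in Ctrl replicate 1. Immune markers, led by *Csf1r*, *Cd68* and *Ptprc*, summed to 19.9, 27.2 and 12.3 CPM in Ctrl against 8.03, 47.1 and 14.9 in TKO, and *Cd3e* was at 0 in 4 libraries. Fibroblast markers, led by *Col1a1*, *Dcn* and *Col1a2*, summed to 1207, 3379 and 3021 CPM in Ctrl against 2171, 2576 and 2819 in TKO and were also lowest in Ctrl replicate 1. They were highest in Ctrl replicate 2, unlike *Actc1*. Of the 7 fibroblast markers, 2 had a log2 fold change above 0 and 5 below, with a median of -0.06. The sort took cells positive for both Epcam and α6 integrin, and the part of endothelial, blood and dermal cells in the *Actc1* values was not tested. Basal keratinocyte markers summed to 24541, 24318 and 18310 CPM in Ctrl against 15185, 17019 and 19449 in TKO.

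**Figure D4:**
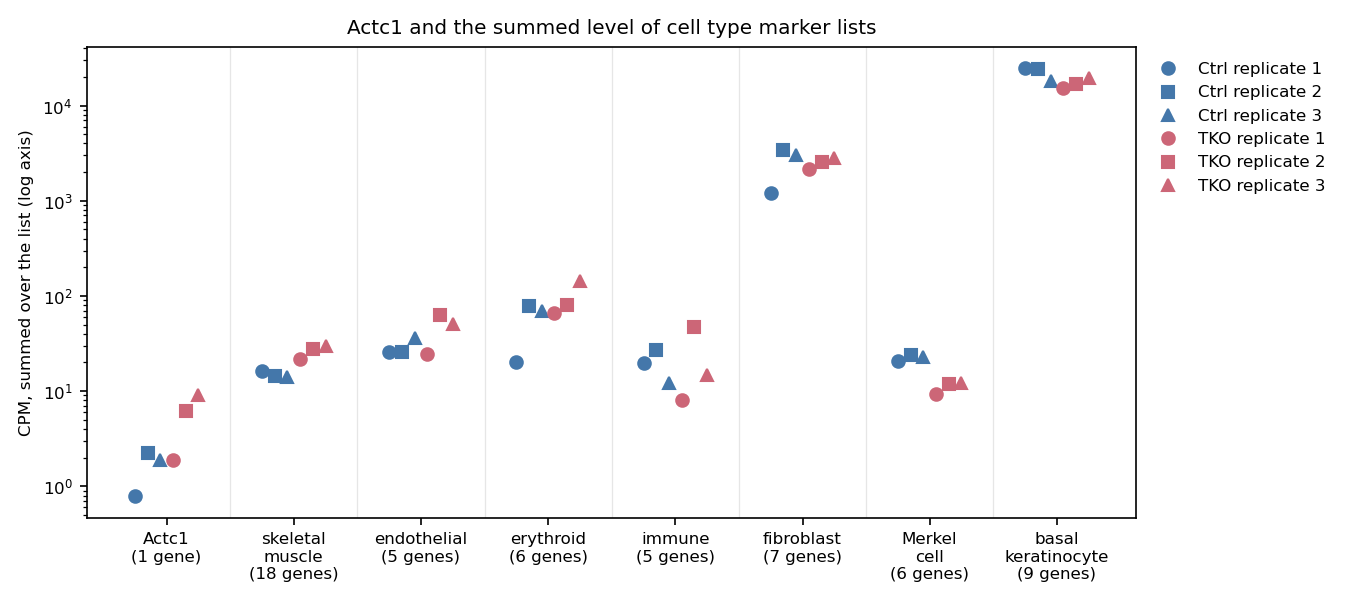
Level of *Actc1* and the summed level of 7 cell type marker lists in each library, in CPM on a log axis, with colour for the group and shape for the replicate number. Endothelial markers, like *Actc1*, stood highest in TKO replicates 2 and 3 (62.4 and 50.6 CPM), Merkel cell markers were lower in all 3 TKO libraries, and basal keratinocyte markers were the highest of the 7 lists drawn. Suprabasal keratinocyte markers, at sums close to the basal ones, were not drawn.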

How the data were processed

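Basal epidermal cells of E16.5 embryos (3 Ctrl, 3 TKO) were profiled by paired-end RNA-seq after rRNA depletion. Per the study's methods, reads were trimmed with fastp and aligned with STAR to GRCm39, while the submitters' processing notes name GRCm38. The counting program, annotation and strand setting are not given in the sources used here. The authors deposited raw counts per Ensembl gene, neither normalized nor pooled, and 51477 of 55536 identifiers matched GENCODE vM39 (GRCm39), which gave symbols, positions and transcript lengths.

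The counts as deposited were tested with edgeR 4.0.16 (R 4.3.3). Genes kept by filterByExpr (minimum count 10, minimum total 15) were scaled by TMM and fitted with glmQLFit (robust) and glmQLFTest, with group as the sole term, and p-values were Benjamini-Hochberg adjusted over all 20622 genes. The script was tested on simulated counts. Alternatives were DESeq2 1.42.0, RLE factors, no filter, at least 10 counts in every library, a replicate block, sex, no robust estimation, no fold threshold and each library left out. DESeq2 with each library left out was added after seeing the data. The members and all gene lists were chosen with earlier results of these data known. Genes were named from the members, deleted genes, paralogs, the 3 most abundant of each list, called genes of the lists and the 5 most like *Actc1*. Not every paralog or abundant gene is named. *Myh6*, *Myh7*, *Tnni1*, *Casq2*, *Mb*, the myogenic factors and markers at 0 were named from the lists with their values known. Python 3.11.15 with edlib 1.3.9.post1 compared actin sequences, and matplotlib 3.10.9 drew the figures.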

Additional observations from a re-analysis of the deposited data

How the results depend on the processing

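At 3 libraries a group, a biological coefficient of variation of 36.5% and at most 1095 counts in a library for any of the 10 genes, small changes were not detectable. edgeR called 27 genes in all, and this became 214 with DESeq2, 235 without the low-count filter, 9 with at least 10 counts required in every library, and 7 to 81 with single libraries left out (7 without Ctrl replicate 2, 81 without TKO replicate 3). The number of the 10 cardiac genes called was 0 in edgeR, 1 with DESeq2 and 1 without the filter, both times *Actc1*, and 0 with any library left out in edgeR. With DESeq2 and 1 library left out it was 0 to 1. Other cardiac genes called went from 0 to 4 with DESeq2 and 3 without the filter. Skeletal muscle markers called went from 1 to 3 with DESeq2, 3 without the filter, 0 with sex as a factor and 0 to 1 with single libraries left out. With single libraries left out, the log2 fold change of *Tnnt2* ran from -0.19 (without TKO replicate 2) to 0.46, with -0.15 without Ctrl replicate 2, and that of *Tnni3* from -0.54 to 0.0065 (without Ctrl replicate 1). The cause of these changes was not tested. Replicate numbers are shared between the groups, but same-numbered libraries deviated together with r of 0.168, 0.0873 and 0.127, so the numbers were not taken to pair them. Each library correlated best with its own number, a hint from the data and not from the design. With the replicate block 45 genes were called, and of the 10 cardiac genes, the other cardiac genes and the skeletal markers 0, 0 and 1, as without it. The log2 fold change of *Actc1* was then 1.66 (edgeR adjusted p = 0.107).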

Other observations

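Other lists held values that the account of the cardiac genes did not use or used only in part. Of 8 melanocyte and Schwann cell markers, led by *Mitf*, *Dct* and *Pmel*, all 8 had a log2 fold change above 0, against 51.9% of all tested genes, and 1, *Mlana*, was called higher by DESeq2 (adjusted p = 0.0206), against 0.936%, and not by edgeR (adjusted p = 0.360). *Mlana* was at 0.141, 0.0155 and 0.167 CPM in Ctrl against 0.994, 1.53 and 0.304 in TKO. *Krt15*, a keratin of basal cells, was at 2716, 2579 and 2089 CPM in Ctrl against 901, 792 and 1573 in TKO, and was called lower by DESeq2 (adjusted p = 0.000660) and not by edgeR (adjusted p = 0.185). Suprabasal markers, led by *Krt1*, *Krt10* and *Krtdap*, summed to 18981 ± 990 CPM in Ctrl against 13892 ± 2108 in TKO (SD, n = 3). The list's median log2 fold change was -0.05, and 0 of its 5 genes were called by edgeR or DESeq2, against 0.131% and 1.04% of all tested genes. *Krt1* and *Krt10*, 2 of the 5, were lower in TKO without overlap, against 5.11% of all tested genes. Smooth muscle and pericyte markers summed to 208 ± 32.6 and 199 ± 17.0 CPM, most of it *Notch3*, which keratinocytes also express.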
